A study of Mus musculus with 13 samples.

Results

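Values of 35 genes, 21 of complement and 14 of coagulation and fibrinolysis, were taken by symbol out of the 26264 genes listed for each library. The libraries were made from polyadenylated RNA of mouse right ventricle: 7 from mice with the Dsg2 F536C knock-in allele, a change in the desmosomal cadherin desmoglein 2 that serves as a model of arrhythmogenic cardiomyopathy, and 6 from wild type. The labels name no other allele or agent and give no strain, age, sex, zygosity or batch for these samples. Nothing in them ties a library to its own animal, and p-values then cover only the spread among these libraries, which may be technical.

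Complement is a cascade of plasma and tissue proteins that tags targets and recruits phagocytes. C1q with its proteases C1r and C1s opens the classical route, MASP proteases open the lectin route, factor B drives the alternative route, and all of them converge on C3, on the anaphylatoxins that C3 and C5 release, and on a membrane pore. Coagulation is started by tissue factor, is held back on endothelium by thrombomodulin, protein S and tissue factor pathway inhibitor, and ends in fibrin that plasmin removes. Most circulating components come from the liver, while macrophages, fibroblasts and endothelial cells of the heart make a subset of both systems locally.

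Library totals were 14498336 to 29848597 estimated reads. Levels below are CPM, read counts scaled to library size with TMM factors, and tests are edgeR's quasi-likelihood F test over all tested genes, called at an adjusted p under 0.05. Dsg2 lay between 33.4 and 61.9 CPM in knock-in and between 84.3 and 116.2 CPM in wild type, with no overlap. Knock-in 4, 5 and 6 stood apart: fractional values made up 10.2% to 10.7% of their read numbers and 3.07% to 3.79% of those of the remaining 10, and 6 epithelial markers summed to 1669 to 3027 CPM in them, 11.8 to 26.7 CPM in knock-in 1, 2, 3 and 7 and 7.87 to 28.1 CPM in wild type. Every test was therefore run with all 13 libraries and again with the 10 that leave these 3 out. Of the 6 epithelial markers Krt8, Krt18 and Krt19 were tested, and Epcam, Cdh1 and Cldn4 were tested in neither set.

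The promoters of 6 genes are shown because they belong to genes whose values are described below: the neighbouring C1qb and C1qc, the endothelial receptor gene Procr, the urokinase receptor gene Plaur, tissue factor F3 and its inhibitor Tfpi. Each is the 250 bases before the annotated start, from the RefSeq table of build GRCm38.p6, read 5′ to 3′ on the gene's strand. Of the 35 genes, 23 had an entry. Capitals mark matches on either strand to the letters of a PU.1 core (GAGGAA) in C1qb, C1qc, Plaur and Tfpi, of an AP-1 site (TGANTCA) in Procr, Plaur and F3, and of an NF-kB site in Procr.
C1qb, chr4:136886201-136886450, minus strand: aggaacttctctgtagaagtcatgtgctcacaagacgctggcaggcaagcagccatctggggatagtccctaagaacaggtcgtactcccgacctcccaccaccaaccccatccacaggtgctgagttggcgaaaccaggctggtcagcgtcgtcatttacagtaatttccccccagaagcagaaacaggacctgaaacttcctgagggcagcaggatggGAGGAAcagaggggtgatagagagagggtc
C1qc, chr4:136892915-136893164, minus strand: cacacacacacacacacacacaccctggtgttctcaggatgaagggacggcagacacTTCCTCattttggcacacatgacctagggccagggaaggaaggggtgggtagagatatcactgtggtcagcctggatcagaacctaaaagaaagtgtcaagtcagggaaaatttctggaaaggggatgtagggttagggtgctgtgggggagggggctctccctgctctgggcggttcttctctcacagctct
Procr, chr2:155750967-155751216, plus strand: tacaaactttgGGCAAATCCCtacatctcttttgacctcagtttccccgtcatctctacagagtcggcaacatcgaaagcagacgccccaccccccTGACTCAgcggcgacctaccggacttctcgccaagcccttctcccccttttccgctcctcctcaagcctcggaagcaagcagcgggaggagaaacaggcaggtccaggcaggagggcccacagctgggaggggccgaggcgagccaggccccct
Plaur, chr7:24462233-24462482, plus strand: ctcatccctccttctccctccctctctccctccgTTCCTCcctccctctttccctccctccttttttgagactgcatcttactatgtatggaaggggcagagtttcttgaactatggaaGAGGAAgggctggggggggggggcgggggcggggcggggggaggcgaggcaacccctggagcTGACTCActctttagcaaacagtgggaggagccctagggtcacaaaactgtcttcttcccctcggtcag
F3, chr3:121723287-121723536, plus strand: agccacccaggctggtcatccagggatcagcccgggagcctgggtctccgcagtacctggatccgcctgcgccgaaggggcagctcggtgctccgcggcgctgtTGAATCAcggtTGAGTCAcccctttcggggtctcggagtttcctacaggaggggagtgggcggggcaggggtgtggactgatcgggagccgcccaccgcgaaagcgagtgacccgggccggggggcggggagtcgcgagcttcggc
Tfpi, chr2:84474175-84474424, minus strand: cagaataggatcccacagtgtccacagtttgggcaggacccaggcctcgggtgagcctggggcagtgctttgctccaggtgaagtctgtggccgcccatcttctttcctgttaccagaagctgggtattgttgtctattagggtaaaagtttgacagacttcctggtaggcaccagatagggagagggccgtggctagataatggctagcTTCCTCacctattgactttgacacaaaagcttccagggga

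The PU.1 letters were found in 4 of 13 complement promoters and 3 of 10 coagulation promoters, 30.8% and 30.0%, beside 23.1% of 27025 promoters of the same length. The AP-1 letters were found in 1 of 13 complement promoters, that of C3ar1, and in 4 of 10 coagulation promoters, those of F3, Procr, Tfpi2 and Plaur, beside 6.87% of all promoters. The NF-kB letters were in 0 of 13 and 1 of 10, beside 0.940% of all promoters. Letters for a GAS element (TTCNNNGAA) and for an ISRE were also searched and were found in 1 and 1 complement and in 1 and 0 coagulation promoters, beside 7.18% and 3.04% of all promoters. These matches are letters in a window and were not tested for binding.

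The listed complement genes were more often called higher than lower in knock-in ventricles. They were chosen with earlier results of these data known. The counts and medians below therefore describe this list only and are no test of complement as a whole. With 13 libraries 13 of 21 rose and 1 fell, beside 23.6% of all tested genes called higher and 21.0% called lower (44.6% in either direction). With 10 libraries 16 of 21 rose and 1 fell, beside 22.3% and 21.3% (43.7% in either direction). The 13 that rose and the 1 that fell with 13 libraries were called in the same direction with 10. The median log2 fold change of the 21 genes was 0.66 and 0.75 in these sets, beside 0.08 and 0.02 over all tested genes. Values of knock-in lay wholly above those of wild type for 8 complement genes with 13 libraries and for 15 with 10, beside 8.60% and 14.8% of tested genes, and wholly below for Cd59a in both, beside 10.5% and 15.1%. C6 and Cfi were at most at 0.480 and 0.326 CPM in wild type and passed the filter on low counts through their knock-in values. Without these 2 genes, 11 of 19 complement genes rose with 13 libraries and 14 of 19 with 10. The median log2 fold change of the 19 was 0.55 and 0.72, and 6 and 13 of them lay wholly above wild type.

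**Figure D1:**
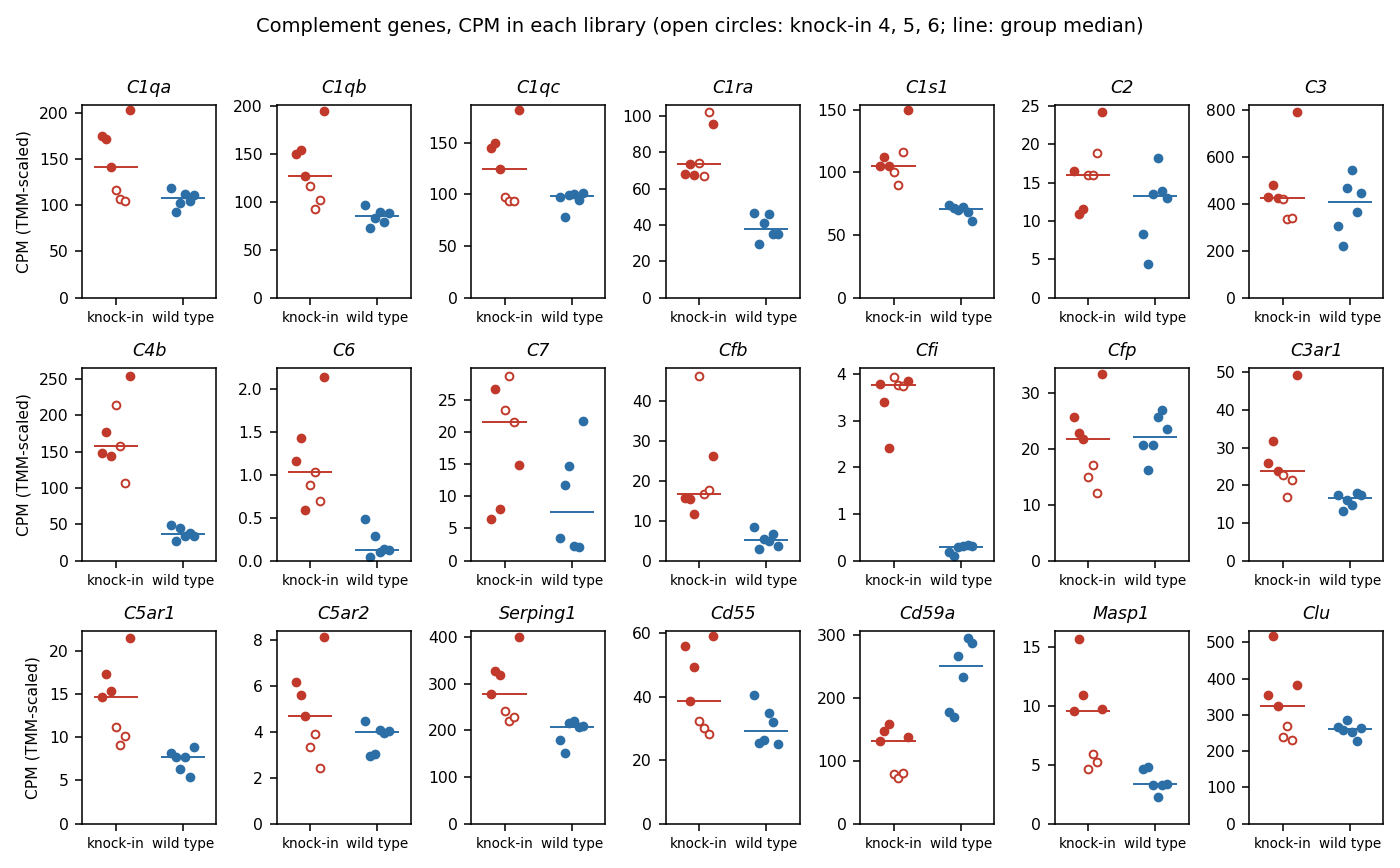
CPM after TMM scaling (y axis, from 0, linear) of each complement gene in each of 7 knock-in and 6 wild-type libraries; points are libraries, open circles are knock-in 4, 5 and 6, and lines are group medians. C4b, Cfb, Cfi, C6, C1ra, C1s1, C5ar1 and Serping1 lay higher in all 7 knock-in libraries than in the 6 wild-type ones, and Cd59a lay lower in every knock-in library.

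The classical route rose at most of its steps. C1qa, C1qb and C1qc encode the chains of C1q, which binds immune complexes and dying cells and which tissue macrophages produce; the 3 genes are neighbours in the annotation. C1qa was at 175, 172, 141 and 203 CPM in knock-in 1, 2, 3 and 7, between 104.2 and 116.2 CPM in knock-in 4 to 6, and between 92.3 and 118.3 CPM in wild type, with a median of 107.8. C1qb was at 149.9, 154, 127 and 195 CPM in knock-in 1, 2, 3 and 7, between 93.0 and 116.3 CPM in knock-in 4 to 6, and between 72.7 and 97.3 CPM in wild type, with a median of 85.8. Both genes were thus above every wild-type library in knock-in 1, 2, 3 and 7. In knock-in 4 to 6 C1qa lay within the wild-type range. C1qb lay within it in knock-in 5, at 93.0 CPM, and above it in knock-in 4 and 6, at 116.3 and 102.1 CPM.

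C1qc behaved like C1qa, at 144, 150.1, 125 and 181 CPM in knock-in 1, 2, 3 and 7, between 93.4 and 97.9 CPM in knock-in 4 to 6 and between 78.0 and 101.8 CPM in wild type. The log2 fold changes of C1qa, C1qb and C1qc were 0.44, 0.66 and 0.41 with 13 libraries (SE 0.16 each; adjusted p = 0.0333, 0.00452 and 0.0477) and 0.69, 0.88 and 0.66 with 10 (adjusted p = 0.000170, 6.05e-05 and 0.000320). With 13 libraries the call of C1qa was lost without knock-in 1, 2 or 7 (adjusted p up to 0.0622), and that of C1qc without wild type 1, 2 or 5 or knock-in 1, 2, 3 or 7 (adjusted p up to 0.0903). Macrophage markers moved too: 4 of 8 rose with 13 libraries and 7 of 8 with 10, beside 23.6% and 22.3% of all tested genes called higher. These markers summed to 919.9 to 1716 CPM in knock-in 1, 2, 3 and 7, 693 to 807 CPM in knock-in 4 to 6, and 544.5 to 868 CPM in wild type. Most of that sum was Lyz2, at 603 to 1257, 443 to 510 and 316 to 577 CPM in the same groups. Lyz2 was called higher with 10 libraries only. The part of these markers in the C1q values was not tested. In whole-tissue RNA more cells of a type and more RNA per cell cannot be told apart.

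C1ra and C1s1 encode the proteases that C1q activates and are also neighbours. C1ra was at 68.1, 73.5, 67.6 and 95.5 CPM in knock-in 1, 2, 3 and 7, between 66.8 and 102.6 CPM in knock-in 4 to 6, and between 29.8 and 46.8 CPM in wild type. C1s1 was at 105.0, 112.5, 105.1 and 149.3 CPM in knock-in 1, 2, 3 and 7, between 89.6 and 115.9 CPM in knock-in 4 to 6, and between 61.4 and 74.0 CPM in wild type. All 7 knock-in libraries were above all 6 wild-type libraries for both genes. C1ra rose by 1.01 ± 0.14 (log2, SE, adjusted p = 0.000127) with 13 libraries and by 0.97 ± 0.14 (adjusted p = 0.000110) with 10, and C1s1 by 0.68 ± 0.11 (adjusted p = 0.000347) and 0.76 ± 0.10 (adjusted p = 8.53e-05).

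C4b encodes C4, which C1s and the lectin proteases cleave to build the C3 convertase, and it was among the clearest rises. It was at 147, 177, 144 and 254 CPM in knock-in 1, 2, 3 and 7, at 214, 158 and 107 CPM in knock-in 4, 5 and 6, and between 26.7 and 49.4 CPM in wild type, with a median of 36.4. The lowest knock-in value was above the highest wild-type one. The fold change was 4.52 with 13 libraries (log2 2.18 ± 0.20 SE, adjusted p = 6.62e-06) and 4.76 with 10 (2.25 ± 0.18, adjusted p = 3.34e-06). Set against the fibroblast marker Pdgfra in the same library, C4b was at 1.19 to 2.30 in knock-in and at 0.326 to 0.507 in wild type. Of 6 fibroblast markers 1, the collagen gene Col1a1, rose with 13 libraries and 5 with 10, beside 23.6% and 22.3% of all tested genes called higher. Pdgfra was called higher with 10 libraries only. These markers summed to 3071 to 4810 CPM in knock-in and 2055 to 3780 CPM in wild type, and their part in the C4b values was not tested. C2, the partner of C4 in that convertase, did not pass in either set: it lay between 10.9 and 24.2 CPM in knock-in and between 4.38 and 18.2 CPM in wild type, with log2 values of the difference of 0.46 ± 0.27 (adjusted p = 0.185) and 0.42 ± 0.35 (adjusted p = 0.357). With 10 libraries C2 moved to as low as 0.13 with 1 library left out. Scaled by library totals, C2 was called with 13 libraries (0.73, adjusted p = 0.0346) and not with 10 (0.70, adjusted p = 0.117).

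Masp1 encodes a protease of the lectin route. It was at 9.54, 15.7, 10.9 and 9.71 CPM in knock-in 1, 2, 3 and 7, between 4.66 and 5.90 CPM in knock-in 4 to 6, and between 2.29 and 4.85 CPM in wild type. Knock-in exceeded every wild-type value in 6 of 7 libraries. Masp1 rose by 1.28 ± 0.29 (log2, SE, adjusted p = 0.00297) with 13 libraries and by 1.66 ± 0.20 (adjusted p = 4.17e-05) with 10.

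In the alternative route Cfb, the protease subunit of its convertase, rose and Cfp, properdin, which stabilises that convertase, did not pass. Cfb was at 15.7, 15.5, 11.6 and 26.2 CPM in knock-in 1, 2, 3 and 7, at 46.2, 16.6 and 17.8 CPM in knock-in 4, 5 and 6, and between 2.89 and 8.54 CPM in wild type. Every knock-in library was above every wild-type one, with log2 fold changes of 2.00 ± 0.34 (SE, adjusted p = 0.000479) and 1.70 ± 0.28 (adjusted p = 0.000538). Cfp lay between 12.2 and 33.4 CPM in knock-in and between 16.1 and 26.9 CPM in wild type. Its log2 difference was -0.07 ± 0.21 (adjusted p = 0.791) with 13 libraries and 0.23 ± 0.15 (adjusted p = 0.226) with 10, and the first was at 0.19 when libraries were scaled by their totals. By that scaling the 10 libraries gave Cfp a call at 0.49 (adjusted p = 0.0124).

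C3, the component on which the routes meet and the most abundant complement read count of the 21, overlapped between the groups. It was at 428, 482, 427 and 794 CPM in knock-in 1, 2, 3 and 7, between 335 and 422 CPM in knock-in 4 to 6, and between 220.3 and 545 CPM in wild type, with a median of 407. Knock-in 7 alone was above the wild-type range. C3 differed by 0.23 ± 0.23 (log2, SE, adjusted p = 0.421) and 0.44 ± 0.24 (adjusted p = 0.158), and by 0.049 and 0.18 without knock-in 7. Scaled by library totals, the 10 libraries gave C3 a call at 0.71 (adjusted p = 0.0285).

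Of the genes of the membrane pore, C6 was higher in every knock-in library and C7 did not pass. C6 had 9 to 61 reads per library in knock-in and 1 to 10 in wild type, or 0.590 to 2.14 CPM against 0.0466 to 0.480 CPM. C6 too passed the filter through knock-in, and its fitted log2 differences of 2.49 ± 0.46 and 2.75 ± 0.49 (SE) are a description. C7 ranged from 6.49 to 28.6 CPM in knock-in and from 2.15 to 21.7 CPM in wild type, and C7 differed on the log2 scale by 0.99 ± 0.57 (adjusted p = 0.166) and by 0.60 ± 0.74 (adjusted p = 0.544). With 1 library left out, the second ran from 0.095 to 1.04.

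Cfi, factor I, the protease that inactivates C3b and C4b, had 37 to 119 reads per knock-in library and 2 to 6 reads per wild-type library. It was at 3.78, 3.41, 2.43 and 3.86 CPM in knock-in 1, 2, 3 and 7, between 3.74 and 3.94 CPM in knock-in 4 to 6, and between 0.0932 and 0.326 CPM in wild type. The groups did not overlap. Since Cfi passed the filter on low counts through knock-in, its fitted log2 differences of 3.80 ± 0.27 and 3.74 ± 0.29 (SE) are given as a description. Cfi in knock-in 4 to 6 lay within the span of the other knock-in libraries or just above it.

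Other regulators went different ways. Serping1, C1 inhibitor, which blocks C1r, C1s and MASP proteases, was at 278, 329, 319 and 402 CPM in knock-in 1, 2, 3 and 7, between 221.1 and 241.5 CPM in knock-in 4 to 6, and between 151 and 219.9 CPM in wild type. Its groups did not overlap, and it rose by 0.55 ± 0.15 (log2, SE, adjusted p = 0.00978) and 0.75 ± 0.13 (adjusted p = 0.000378). Cd55, decay-accelerating factor, a membrane protein that dissociates convertases, rose with 10 libraries only: it was at 56.1, 38.5, 49.4 and 59.1 CPM in knock-in 1, 2, 3 and 7, between 28.4 and 32.3 CPM in knock-in 4 to 6, and between 25.2 and 40.5 CPM in wild type. It differed on the log2 scale by 0.45 ± 0.19 (adjusted p = 0.0720) and 0.72 ± 0.15 (adjusted p = 0.00161).

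Cd59a encodes the membrane inhibitor of the pore and was the only complement member called lower. It was at 130, 147, 157 and 138 CPM in knock-in 1, 2, 3 and 7, between 72.8 and 79.7 CPM in knock-in 4 to 6, and between 168.9 and 295 CPM in wild type, with a median of 249.6. Every knock-in library was below every wild-type library in CPM. In TPM the groups overlapped, at 70.5 to 135.8 in knock-in and 124.6 to 178.8 in wild type. The log2 fold changes were -1.05 ± 0.21 (SE, adjusted p = 0.00162) and -0.73 ± 0.16 (adjusted p = 0.00228). Cardiomyocyte markers fell as well, 7 of 7 with 13 libraries and 6 of 7 with 10, beside 21.0% and 21.3% of all tested genes called lower. These markers summed to 18467 to 38060 CPM in knock-in and to 43606 to 65163 CPM in wild type, and their part in the Cd59a values was not tested. The ratio of Cd59a to the cardiomyocyte myosin gene Myh6 within a library was 0.0176 to 0.0230 in knock-in and 0.0127 to 0.0258 in wild type.

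Clu, clusterin, a secreted chaperone that also restrains the pore, was the most abundant member per length, with 287 ± 77.2 TPM in knock-in and 169 ± 22.3 TPM in wild type (SD, n = 7 and 6). In CPM it was at 355, 517, 325 and 382 in knock-in 1, 2, 3 and 7, between 229 and 269 in knock-in 4 to 6 and between 227 and 287 in wild type. It rose with 10 libraries (log2 0.61 ± 0.12 SE, adjusted p = 0.00145) and not with 13 (0.36 ± 0.17, adjusted p = 0.102; 0.21 without knock-in 2).

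The receptors for the anaphylatoxins C3a and C5a are carried by myeloid cells. C3ar1 was at 26.0, 31.7, 23.7 and 49.3 CPM in knock-in 1, 2, 3 and 7, between 16.9 and 22.6 CPM in knock-in 4 to 6, and between 13.1 and 17.9 CPM in wild type. C5ar1 was at 14.6, 17.3, 15.3 and 21.5 CPM in knock-in 1, 2, 3 and 7, between 9.06 and 11.2 CPM in knock-in 4 to 6, and between 5.35 and 8.81 CPM in wild type. C5ar1 was higher in all 7 knock-in libraries than in any wild-type one, and C3ar1 in 6 of 7.

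C3ar1 rose by 0.76 ± 0.21 (log2, SE, adjusted p = 0.00942) and 1.03 ± 0.18 (adjusted p = 0.000490), and C5ar1 by 0.95 ± 0.20 (adjusted p = 0.00220) and 1.23 ± 0.15 (adjusted p = 3.41e-05). C5ar2, a second C5a receptor that does not couple to G proteins, was at 6.2, 5.61, 4.72 and 8.14 CPM in knock-in 1, 2, 3 and 7, between 2.42 and 3.92 CPM in knock-in 4 to 6, and between 2.94 and 4.46 CPM in wild type. It rose with 10 libraries (0.72 ± 0.18, adjusted p = 0.00517) and did not pass with 13 (0.38 ± 0.25, adjusted p = 0.221; 0.21 without knock-in 7). Of 6 neutrophil markers 3 were tested and 1, Csf3r, rose in both sets (log2 1.35 and 1.32, adjusted p = 0.00195 and 0.00359), and Ly6g was at 0 in every library. The list summed to 5.33 to 29.9 CPM in knock-in and to 2.47 to 14.8 CPM in wild type, and its part in the receptor values was not tested. Knock-in 7 held the highest C1q, C3, C3ar1, C5ar1 and C5ar2 values of all libraries. It also held the highest macrophage marker sum, most of it Lyz2.

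**Figure D2:**
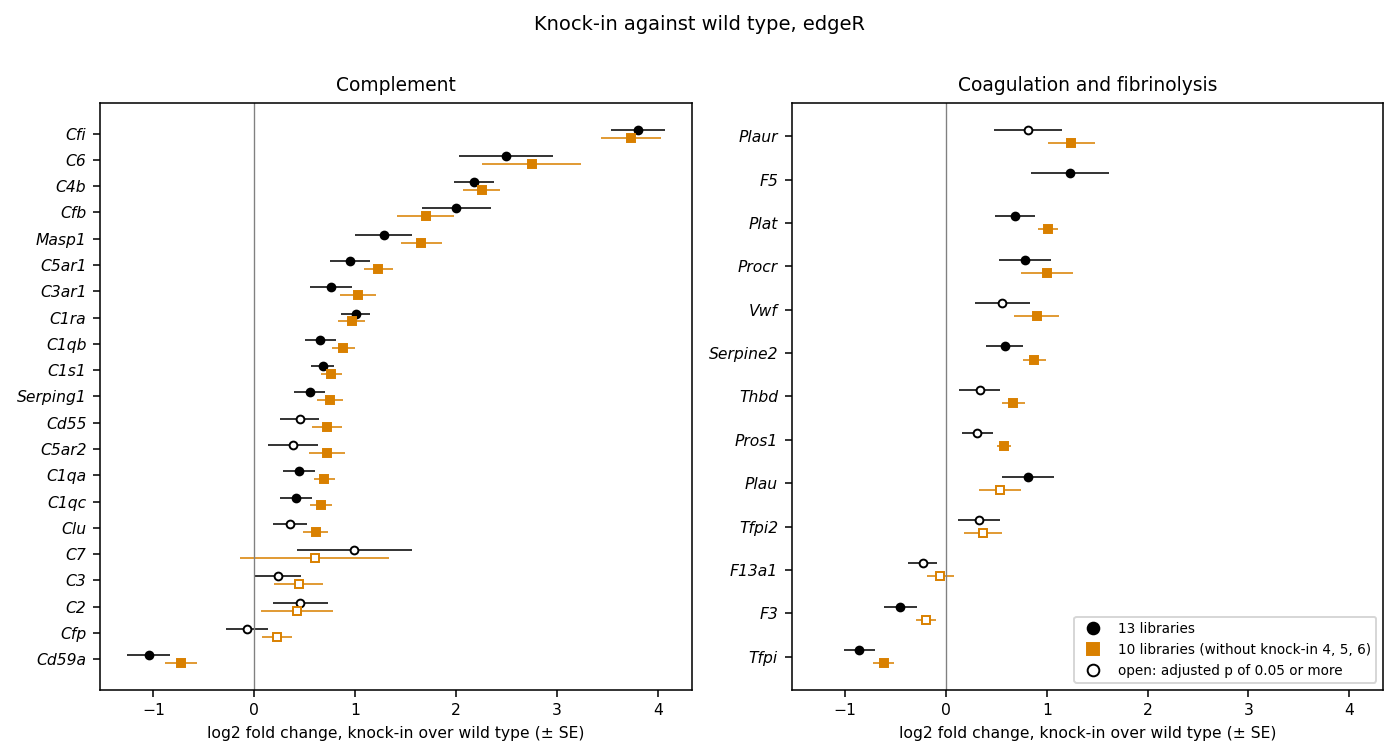
Log2 fold change of knock-in over wild type (x axis, linear) with its SE for the tested members, with 13 libraries (black circles) and with 10 (orange squares); filled symbols passed an adjusted p of 0.05. Cfi, C6, C4b and Cfb lie farthest to the right, and Cd59a and Tfpi lie left of 0 with filled symbols in both sets. Cfi and C6 passed the filter on low counts through their knock-in values.

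The listed coagulation and fibrinolysis genes were called in both directions. These too were chosen with earlier results of these data known, so their counts and medians describe the list only. With 13 libraries 5 of 13 tested genes rose and 2 fell, and with 10 libraries 7 of 12 rose and 1 fell, beside the same shares of all genes, 23.6% and 21.0%, and 22.3% and 21.3%. Only 3 genes, Procr, Plat and Serpine2, rose in both sets, and 1, Tfpi, fell in both. The median log2 fold change was 0.56 and 0.62, beside 0.08 and 0.02 over all tested genes. With 13 libraries 0 of the 14 genes lay wholly above wild type and Tfpi lay wholly below, beside 8.60% and 10.5% of tested genes, and with 10 libraries 5 lay wholly above and Tfpi wholly below, beside 14.8% and 15.1%. F5 and F10 were low in wild type, at most at 0.496 and 0.213 CPM. F10 was not tested in either set and F5 not with 10 libraries. Without F5, 4 of 12 genes rose with 13 libraries, with a median log2 fold change of 0.45.

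**Figure D3:**
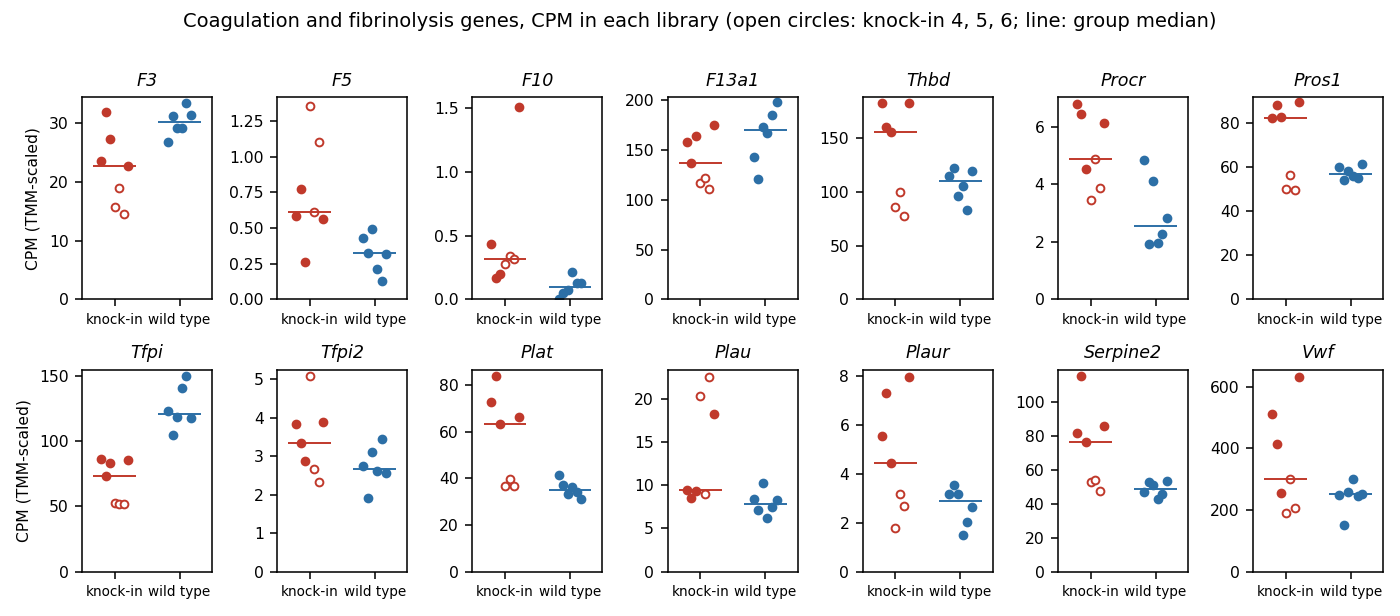
CPM after TMM scaling (y axis, from 0, linear) of each coagulation and fibrinolysis gene in each of 7 knock-in and 6 wild-type libraries; points are libraries, open circles are knock-in 4, 5 and 6, and lines are group medians. For Thbd, Pros1, Plat, Plaur and Serpine2 the filled knock-in circles lie above all wild-type points while most open ones lie within or below the wild-type range, and Tfpi is lower in all 7 knock-in libraries.

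Initiation of clotting was represented by F3, tissue factor, and its inhibitors. F3 was at 23.6, 32.0, 27.4 and 22.7 CPM in knock-in 1, 2, 3 and 7, at 15.8, 18.9 and 14.5 CPM in knock-in 4, 5 and 6, and between 26.8 and 33.5 CPM in wild type. It was below the wild-type range in 5 of 7 knock-in libraries. F3 fell by 0.45 ± 0.16 (log2, SE, adjusted p = 0.0380) with 13 libraries and did not pass with 10 (-0.20 ± 0.10, adjusted p = 0.138), where scaling by library totals gave 0.048. With 13 libraries F3 no longer passed without wild type 2, 3, 4, 5 or 6 or knock-in 4, 5 or 6 (adjusted p up to 0.0774), and with 10 libraries F3 passed without knock-in 2 (-0.31, adjusted p = 0.0195).

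Tfpi, the inhibitor of the tissue factor complex, was lower in every knock-in library. It was at 86.3, 73.2, 83.0 and 85.9 CPM in knock-in 1, 2, 3 and 7, between 52.0 and 52.8 CPM in knock-in 4 to 6, and between 104.7 and 150.0 CPM in wild type, with a median of 120.6. It fell by 0.86 ± 0.15 (log2, SE, adjusted p = 0.000632) with 13 libraries and by 0.61 ± 0.11 (adjusted p = 0.000447) with 10. With limma on log2(TPM + 1) and log2(TPM + 0.1) Tfpi no longer passed with 10 libraries (adjusted p = 0.0766 and 0.0758), and its TPM ran from 40.8 to 74.6 in knock-in and from 65.0 to 83.5 in wild type. Set against the endothelial marker Pecam1 in the same library, Tfpi was at 0.201 to 0.330 in knock-in and at 0.379 to 0.666 in wild type. Tfpi2, a related protease inhibitor, did not pass: it lay between 2.32 and 5.10 CPM in knock-in and between 1.91 and 3.46 CPM in wild type, with log2 differences of 0.33 ± 0.21 (adjusted p = 0.202) and 0.37 ± 0.19 (adjusted p = 0.128). Scaled by library totals, Tfpi2 was called in both sets (0.58 and 0.62, adjusted p = 0.0267 and 0.0153).

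Thbd, thrombomodulin, Procr, the endothelial protein C receptor, and Pros1, protein S, belong to the protein C anticoagulant system. Thbd was at 182, 159.9, 155 and 182 CPM in knock-in 1, 2, 3 and 7, between 77.5 and 99.6 CPM in knock-in 4 to 6, and between 83.0 and 121.8 CPM in wild type. Pros1 was at 82.3, 88.1, 82.5 and 89.6 CPM in knock-in 1, 2, 3 and 7, between 49.7 and 56.4 CPM in knock-in 4 to 6, and between 54.0 and 61.4 CPM in wild type. Knock-in 1, 2, 3 and 7 were above every wild-type library for both genes, while knock-in 4 to 6 lay within the wild-type range or below it.

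Thbd and Pros1 rose with 10 libraries (log2 0.67 ± 0.11 SE, adjusted p = 0.000332, and 0.58 ± 0.07, adjusted p = 4.16e-05) and did not pass with 13 (0.33 ± 0.21, adjusted p = 0.198, and 0.31 ± 0.15, adjusted p = 0.112; Pros1 passed without knock-in 4 or 6, adjusted p down to 0.0404). Procr was at 6.78, 6.44, 4.52 and 6.14 CPM in knock-in 1, 2, 3 and 7, between 3.46 and 4.88 CPM in knock-in 4 to 6, and between 1.91 and 4.85 CPM in wild type. Its groups overlapped, and it rose by 0.78 ± 0.26 (adjusted p = 0.0237) and 1.00 ± 0.26 (adjusted p = 0.00604).

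Vwf, von Willebrand factor, which tethers platelets and carries factor VIII, was at 511, 414, 253 and 632 CPM in knock-in 1, 2, 3 and 7, between 191 and 300.4 CPM in knock-in 4 to 6, and between 152.7 and 300.8 CPM in wild type. It rose with 10 libraries (log2 0.90 ± 0.22 SE, adjusted p = 0.00552) and did not pass with 13 (0.56 ± 0.27, adjusted p = 0.105; 0.37 without knock-in 7, and called at 0.67, adjusted p = 0.0496, without knock-in 4). Of 8 endothelial markers 0 were called with 13 libraries. With 10 libraries 2 of them, Pecam1 and Erg, rose, beside 22.3% of all tested genes called higher. The list summed to 1263 to 1450 CPM in knock-in 1, 2, 3 and 7, 821 to 905 CPM in knock-in 4 to 6, and 999.8 to 1543 CPM in wild type, and its part in these values was not tested.

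Of the clotting factors, F13a1 was called in neither set. F13a1, the catalytic chain of factor XIII, which cross-links fibrin and is made by macrophages, lay between 110.5 and 175 CPM in knock-in and between 120.6 and 199 CPM in wild type. F13a1 differed on the log2 scale by -0.23 ± 0.14 (SE, adjusted p = 0.199) and -0.05 ± 0.13 (adjusted p = 0.767), at 0.033 and 0.21 when scaled by library totals. F5, factor V, had 4 to 35 reads per knock-in library and 2 to 9 per wild-type library, and a gene on the opposite strand overlaps it. It passed the filter through knock-in with 13 libraries, not with 10, and in 7 of the 13 fits that leave out 1 library, so its fitted log2 difference of 1.23 ± 0.38 (SE) is a description. F10, factor X, had 3 to 43 reads per knock-in library and 0 to 4 per wild-type library and was not tested.

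Among the fibrinolysis genes, Plat and Serpine2 rose in both sets. Plat, tissue plasminogen activator, was at 72.5, 84.0, 63.4 and 66.4 CPM in knock-in 1, 2, 3 and 7, between 36.6 and 39.5 CPM in knock-in 4 to 6, and between 31.3 and 41.2 CPM in wild type. Serpine2, protease nexin-1, an inhibitor of thrombin and of plasminogen activators, was at 81.5, 115, 76.1 and 85.8 CPM in knock-in 1, 2, 3 and 7, between 47.4 and 54.0 CPM in knock-in 4 to 6, and between 43.0 and 53.6 CPM in wild type. Both genes were above all wild-type libraries in knock-in 1, 2, 3 and 7. Plat rose by 0.68 ± 0.20 (log2, SE, adjusted p = 0.0133) and 1.01 ± 0.10 (adjusted p = 7.57e-06), and Serpine2 by 0.58 ± 0.18 (adjusted p = 0.0198) and 0.88 ± 0.11 (adjusted p = 5.58e-05).

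Plau, urokinase, and Plaur, its receptor, were called in different sets. Plau was at 9.45, 8.53, 9.31 and 18.2 CPM in knock-in 1, 2, 3 and 7, at 20.3, 9.03 and 22.5 CPM in knock-in 4, 5 and 6, and between 6.17 and 10.3 CPM in wild type. Only knock-in 4, 6 and 7 exceeded the wild-type range. Plau rose with 13 libraries (log2 0.81 ± 0.26 SE, adjusted p = 0.0205) and missed the threshold with 10 (0.53 ± 0.21, adjusted p = 0.0506; 0.20 without knock-in 7, and called without wild type 3 or knock-in 1, 2 or 3). Plaur was at 5.57, 7.32, 4.46 and 7.96 CPM in knock-in 1, 2, 3 and 7, between 1.79 and 3.20 CPM in knock-in 4 to 6, and between 1.49 and 3.54 CPM in wild type. It rose with 10 libraries (1.24 ± 0.23, adjusted p = 0.000856) and not with 13 (0.81 ± 0.34, adjusted p = 0.0622; called without wild type 2 or knock-in 4 or 6).

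Per length, the order of the members by mean TPM in wild type began with Clu, Cd59a, Serping1, C1qa, C1qc, C1qb and C3. In knock-in it began with Clu, Serping1, C1qa, C1qc, C1qb, C3 and Cd59a. Cd59a was at 105 ± 29.1 TPM in knock-in and 157 ± 22.6 TPM in wild type, and Serping1 at 251 ± 54.8 TPM in knock-in and 127 ± 10.5 TPM in wild type (SD, n = 7 and 6). The 3 C1q genes averaged 205 to 227 TPM in knock-in, with SDs among libraries of 50.9 to 55.1 TPM. In wild type they averaged 96.5 to 123 TPM, with SDs of 9.15 to 14.8 TPM. C6, F5 and F10 were last in both groups.

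**Figure D4:**
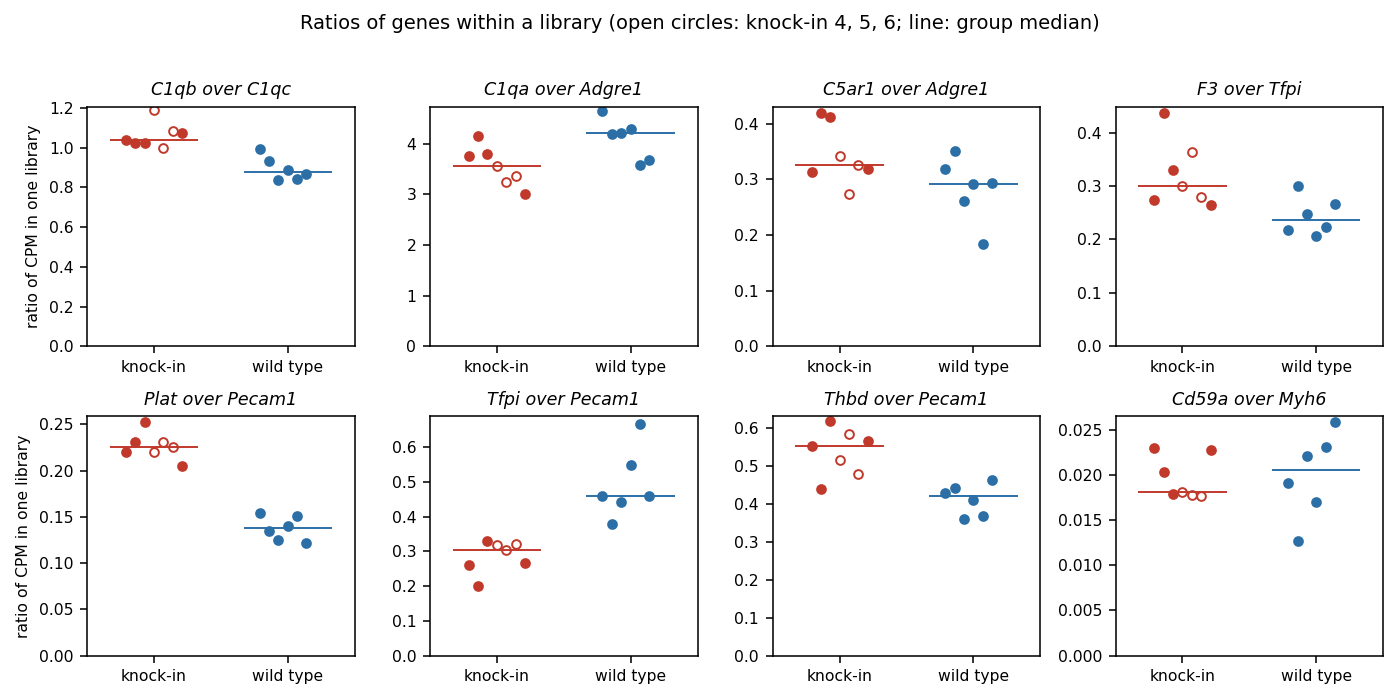
Ratios of CPM of a pair of genes within a library (y axis, from 0, linear) for 8 of the pairs in knock-in and wild-type libraries; points are libraries, open circles are knock-in 4, 5 and 6, and lines are group medians. C1qb over C1qc and Plat over Pecam1 lay higher in all 7 knock-in libraries than in the 6 wild-type ones, and Tfpi over Pecam1 lay lower in all 7.

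Ratios between genes of one library were compared for 20 pairs, chosen after the values were seen, by an exact two-sided permutation test with Benjamini-Hochberg adjustment over the 20; the smallest p it allows is 0.000583 with 13 libraries and 0.00476 with 10. C1qb over C1qc was at 0.997 to 1.19 in knock-in and at 0.837 to 0.994 in wild type, a log2 difference of 0.25 (exact permutation, adjusted p = 0.00291) with 13 libraries and 0.22 (adjusted p = 0.0317) with 10. C1qb over C1qa differed by 0.21 and 0.19 (exact permutation, adjusted p = 0.00388 and 0.0190). C1ra over C1s1 passed with 13 libraries and not with 10 (0.34 and 0.22, exact permutation, adjusted p = 0.00388 and 0.110). C1qa over C1qc did not differ past the threshold (0.034, exact permutation, adjusted p = 0.508, and 0.035, adjusted p = 0.545). Over the macrophage gene Adgre1, C1qa differed by -0.21 and -0.16 (exact permutation, adjusted p = 0.0583 and 0.254), while C1qb differed by 0.0043 and 0.022, C3ar1 by 0.076 and 0.12, and C5ar1 by 0.29 and 0.39 (exact permutation, adjusted p = 0.995 and 0.843, 0.546 and 0.327, and 0.119 and 0.116). Adgre1 was 1 of 8 macrophage markers, and its own log2 fold changes were 0.66 and 0.88. Those of the 8 ran from -0.29 (Cd163) to 1.20 (Cd68) with 13 libraries and from -0.33 to 1.55 with 10. A ratio to another marker could therefore differ in size or sign, and none was computed. C4b over Pdgfra differed by 1.99 and 1.96 (exact permutation, adjusted p = 0.00291 and 0.0190).

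F3 over Tfpi was at 0.265 to 0.437 in knock-in and at 0.207 to 0.300 in wild type (log2 difference 0.39 and 0.40, exact permutation, adjusted p = 0.0315 and 0.0779). Over Pecam1, Thbd differed by 0.38 and 0.39 (exact permutation, adjusted p = 0.00728 and 0.0408), Plat by 0.72 and 0.72 (adjusted p = 0.00291 and 0.0190) and Tfpi by -0.78 and -0.89 (adjusted p = 0.00291 and 0.0190). Vwf over Pecam1 passed with 13 libraries and not with 10 (0.57 and 0.57, exact permutation, adjusted p = 0.0207 and 0.0779). Cd59a over Myh6 did not differ past the threshold (0.0039 and 0.10, exact permutation, adjusted p = 0.995 and 0.717).

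Of 34 further complement genes, 21 were tested; in each set 9 of them rose and 3 fell, beside 23.6% of all tested genes higher and 21.0% lower with 13 libraries and 22.3% and 21.3% with 10. Their median log2 fold changes were 0.15 and 0.34, beside 0.08 and 0.02 over all tested genes. Itgax, a chain of complement receptor 4 on myeloid cells, was at 9.35, 5.17, 4.52 and 44.4 CPM in knock-in 1, 2, 3 and 7, between 3.09 and 6.94 CPM in knock-in 4 to 6, and between 0.386 and 1.82 CPM in wild type, and rose by 3.58 and 4.11 on the log2 scale (adjusted p = 0.00155 and 0.00235). The untested genes included Hc, C8a, C8b, C9, Mbl1, Mbl2 and Masp2.

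Of 38 further coagulation genes, 15 were tested, and 7 rose and 1 fell in each set, beside those same shares of all tested genes (23.6% and 21.0%, 22.3% and 21.3%). Their median log2 fold changes were 0.35 and 0.27, beside 0.08 and 0.02 over all tested genes. Anxa2, a plasminogen and tissue plasminogen activator receptor, rose by 1.65 and 0.75 (adjusted p = 0.00305 and 0.000150), with 495 to 1052 CPM in knock-in 4 to 6, 193 to 289 CPM in knock-in 1, 2, 3 and 7 and 123.8 to 153.3 CPM in wild type. F2rl1, a protease-activated receptor, rose by 1.18 and 1.21 (adjusted p = 0.00204 and 0.00323). Of 6 hepatocyte markers 2 were tested: Ahsg rose in both sets (log2 1.49 and 2.03, adjusted p = 0.0298 and 0.00637), and Tat rose with 13 libraries and did not pass with 10 (5.83 and -0.55, adjusted p = 0.0268 and 0.251). The list summed to 14.6 to 223 CPM in knock-in and to 7.51 to 20.1 CPM in wild type, while Alb was at 0 to 0.343 CPM in knock-in and at 0 to 0.932 CPM in wild type; the part of these markers in the coagulation values was not tested. The untested genes included F2, F7, F9, Fga, Fgb, Fgg, Plg and Proc.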

How the data were processed

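The authors deposited 1 file per library. Its estimated counts (reads assigned to each gene by the quantifier, not normalized) were deposited by the authors under that name, per the file headers. TPM values, per length and per library, were likewise deposited by the authors, per the file headers. The submitters' processing notes name DRAGEN and GRCm39; no version, annotation or counting setting is given in the sources used here. Per the labels' protocols, poly(A)+ RNA was prepared with a stranded kit. TPM is scaled to a fixed sum, so it keeps no depth; depth here is the total of estimated counts.

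Estimated counts were rounded to whole numbers, filtered with filterByExpr, scaled by TMM and tested with edgeR 4.0.16 (robust quasi-likelihood F test, R 4.3.3) on 2 groups, with Benjamini-Hochberg adjustment over the 14588 genes tested with 13 libraries or the 14518 tested with 10. The SE was taken as |log2 fold change|/√F. The fits were tested on simulated data. The members and all lists were chosen with earlier results of these data known. Genes outside the 35 members are named where they were among the 3 most changed called genes of a further list, except that some results are not reported here. Alternatives were library totals, DESeq2 1.42.0, its size factors, no filter on low counts, limma 3.58.1 on log2(TPM + 1) and log2(TPM + 0.1), a replicate block, an indicator for knock-in 4 to 6, and leaving out each library. Read numbers of C1ra, C1s1, C4b and Cd55 can be shared with near-identical copies, and those of Cd59a with Cd59b. C2 and F5 overlap genes on the opposite strand that are among those listed for each library. C1s1, Cd55 and F13a1 overlap opposite-strand genes that are not among them. Promoters came from RefSeq tables of GRCm38.p6; no coordinate was joined to the deposited files.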

Additional observations from a re-analysis of the deposited data

Results flagged for a closer look

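In 5 of the 70 groups of values checked, a library lay far from the others of its group; chance sets apart about 1 group in 20. C3 was at 794 CPM in knock-in 7, with 482 CPM next. Cfb was at 46.2 CPM in knock-in 4, with 26.2 CPM next. Cfi was at 2.43 CPM in knock-in 3, the lowest of its group, with 3.41 CPM next. F10 was at 1.51 CPM in knock-in 7, with 0.436 CPM next. C1qc was at 78.0 CPM in wild type 2, the lowest of its group, with 94.1 CPM next.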

How the results depend on the processing

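With 13 libraries the 5 coagulation genes called higher became 10 with library totals, 9 and 10 with limma on log2(TPM + 1) and log2(TPM + 0.1), and 2 with the replicate block, while genes called higher among all 14588 tested numbered 6110, 7665, 7840 and 2270 under these settings, beside 3442; the 2 called lower became 1 under these 4 settings, with the indicator for knock-in 4 to 6 and with 10 libraries. With 10 libraries the complement count called lower became 0 with the replicate block, and the coagulation count called lower became 0 with both TPM fits (Tfpi). Leaving out 1 library at a time gave 4 to 7 coagulation genes higher and 1 to 2 lower with 13 libraries, 7 to 8 higher and 1 to 2 lower with 10 (2 without knock-in 2), 11 to 15 complement genes higher with 13 and 16 to 16 with 10.

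The sign turned for differences that had not passed. Cfp with 13 libraries was at 0.19 with library totals, 0.30 and 0.32 with the TPM fits, 0.23 with the indicator, 0.23 with 10 libraries and -0.22 to 0.029 with 1 library left out. F13a1 with 13 was at 0.033, 0.21 and 0.22 with library totals and the TPM fits; with 10 it was at 0.21, 0.35, 0.36, and 0.082 with the block, and -0.13 to 0.0071 with 1 library left out. F3 with 10 was at 0.048, 0.18 and 0.19. The ratios turned with 10 libraries for Plaur over Plau (0.80), C4b over C4a (0.52), C1ra over C1rb (0.36) and C1s1 over C1s2 (0.30). The 10 libraries were an alternative chosen after seeing the data. With them Plaur over Plau and C4b over C4a passed (exact permutation, adjusted p = 0.0423 for each). With 13 libraries neither had passed (exact permutation, adjusted p = 0.995 and 0.569). The cause of these changes was not tested. Library totals moved the median log2 fold change of all genes to 0.33 with 13 libraries and 0.26 with 10. By that scaling 8 members gained a call with 13 libraries (C2, Cd55, Clu, Thbd, Pros1, Tfpi2, Plaur and Vwf) and 4 with 10 (C3, Cfp, Tfpi2 and Plau). With 13 libraries 1 member, F3, lost its call (-0.20, edgeR, adjusted p = 0.300). All tested genes called higher then numbered 6110 and 6049, beside 3442 and 3241. DESeq2 size factors and no filter changed no member's call.

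Replicate numbers appear in both groups, but not every same-numbered pair deviated together (r from -0.11 to 0.08 over 6 numbers with 13 libraries; 0.24, 0.14 and -0.025 for numbers 1, 2 and 3 with 10, where 1 of 3 correlated best with its own number), so they are taken to share only a number. With the replicate block 7 members lost their call with 13 libraries (C1qa, C1qc, Serping1, F3, F5, Plau and Serpine2) and 6 with 10 (C6, C5ar2, Cd59a, Clu, Procr and Vwf). Low read numbers limit C6, Cfi, F5 and F10.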

Other observations

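Near-identical copies of 3 classical-route genes were high in some or all of knock-in 4, 5 and 6: C1rb and C1s2 in all 3, C4a in knock-in 4 and 5. C4a was at 41.3, 20.9 and 3.01 CPM in knock-in 4, 5 and 6, between 2.86 and 5.51 CPM in the other knock-in libraries and between 0.746 and 2.02 CPM in wild type. C1rb was at 27.9, 19.4 and 47.1 CPM in knock-in 4, 5 and 6, between 2.09 and 5.30 CPM in the other knock-in libraries and between 1.82 and 2.66 CPM in wild type. C1s2 was at 13.3, 7.92 and 21.2 CPM in knock-in 4, 5 and 6, between 0.533 and 0.983 CPM in the other knock-in libraries and between 0.384 and 1.12 CPM in wild type. C1ra over C1rb was at 2.18 to 3.45 in knock-in 4 to 6 and at 16.4 to 20.7 in wild type. C4a rose in both sets (log2 3.31 and 1.69, adjusted p = 0.00398 and 0.000482), as did C1rb (2.87 and 0.69, adjusted p = 0.00767 and 0.0367), while C1s2 rose with 13 libraries and did not pass with 10 (3.37 and 0.34, adjusted p = 0.0113 and 0.460). In the same 3 libraries the sum of the 6 epithelial markers, 3 of them tested, was 1669 to 3027 CPM, and its part in these values was not tested.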
